A study of Mus musculus with 19 samples.

Results

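The 10 genes described here encode replication-independent histone variants and 1 chaperone that removes a variant: *H2afz* and *H2afv* (H2A.Z), *H2afx* (H2A.X), *H2afy* and *H2afy2* (macroH2A), *H3f3a* and *H3f3b* (H3.3), *Cenpa* (the centromeric H3), *H1f0* (the linker histone H1.0) and *Anp32e*. They were chosen by name from the 51912 genes counted, by no rule on measured values but with earlier results of these data known. All 10 were found, and all 10 passed the filter on low counts in every comparison. Each of 19 libraries held RNA from the neocortex of 1 mouse embryo at embryonic day (E) 13.5, on a mixed C57BL/6 and 129 background. The 7 ctrl embryos are given by the labels as controls, with no alleles stated. The 5 cKO-E embryos carried *Emx1*-Cre and a conditional *Ino80* allele (*Emx1* Cre/+;*Ino80* fl/fl), and the 7 dKO-E embryos carried in addition a conditional *Trp53* allele (*Trp53* fl/fl). *Emx1*-Cre acts in cortical progenitors and the cells that descend from them from about the onset of neurogenesis, and interneurons, microglia and vessels in the same tissue are outside that lineage.

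Most histones are made during S phase and placed behind the replication fork, whereas many histone variants are also made outside S phase and are placed by dedicated machinery. H2A.Z marks promoters and enhancers and is put in by the SRCAP and TIP60-p400 remodellers, H3.3 is placed at active genes by HIRA and at heterochromatin by ATRX and DAXX, CENP-A defines the centromere, macroH2A is found in silent chromatin, and H2A.X is phosphorylated beside DNA breaks. INO80, the ATPase of a remodeller that slides nucleosomes and has been reported to act on those that hold H2A.Z, is the protein deleted here, and p53 is the transcription factor that answers DNA damage.

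The H2A.Z, H3.3 and macroH2A variants are each made from a pair of genes, and the results below turn on telling the members of a pair apart. The first 75 bases of the coding sequences of the H2A.Z and H3.3 pairs are shown because the proteins are nearly or wholly the same while the messages are not; capitals mark the bases at which the members of a pair differ, and the sequences are those of the GENCODE M21 transcripts on GRCm38.
H2afz: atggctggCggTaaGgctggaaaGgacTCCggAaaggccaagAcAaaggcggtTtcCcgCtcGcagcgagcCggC
H2afv: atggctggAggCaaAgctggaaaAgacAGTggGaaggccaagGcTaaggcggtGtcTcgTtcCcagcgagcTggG
H3f3a: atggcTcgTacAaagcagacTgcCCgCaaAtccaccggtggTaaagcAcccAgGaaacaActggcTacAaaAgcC
H3f3b: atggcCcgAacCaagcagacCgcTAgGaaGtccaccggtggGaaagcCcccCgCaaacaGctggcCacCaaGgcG
Within these windows the H2A.Z genes differed at 16 bases and the H3.3 genes at 17. Over the whole coding sequence of 411 bases, *H3f3a* and *H3f3b* differed at 95 bases in 83 codons, none of which changed the encoded residue, so that both genes encode 1 protein. *H2afz* and *H2afv* differed at 81 of 387 bases in 74 codons, of which 3 changed the residue. The coding sequences of *H2afy* and *H2afy2* were 67.3% identical. The longest run of identical coding bases was 14 for the H2A.Z pair, 23 for the H3.3 pair and 16 for the macroH2A pair, and no 50-base stretch of any annotated transcript was shared between the members of a pair.

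Sequence shared with other annotated genes was a larger limit. Of the 50-base stretches in *H2afz* transcripts, 35.4% also occurred in a transcript of another annotated gene, among them 4 pseudogenes, and in *H3f3a* 27.1% did, among them 39 pseudogenes as well as repeats. The share was 15.4% for *H2afy2*, whose exons overlap those of *Aifm2* on the opposite strand, and 9.66% for *H2afx*, which shares stretches with replication-dependent H2A genes. In *H2afv* and *Anp32e* no 50-base stretch was shared, and in *H2afy*, *H3f3b*, *Cenpa* and *H1f0* between 1.54% and 6.86% were. Some of these shares come from a gene at the same place and not from a copy elsewhere, as with *Aifm2* for *H2afy2* and the antisense transcripts of *H2afy* and *H1f0*. Because only uniquely aligned reads were counted, the levels of *H2afz* and *H3f3a* are uncertain. A share of stretches is not a share of reads, so the degree was not measured.

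The genes lie on 8 chromosomes of GRCm38 and were counted over all their exons. *H2afz* (ENSMUSG00000037894.13) is at chr3:137864487-137866922 on the plus strand, *H2afv* (ENSMUSG00000041126.16) at chr11:6427229-6444443 on the minus strand and *H2afx* (ENSMUSG00000049932.3) at chr9:44334694-44336077 on the plus strand. *H2afy* (ENSMUSG00000015937.14) is at chr13:56073619-56136361 and *H2afy2* (ENSMUSG00000020086.6) at chr10:61738665-61784147, both on the minus strand. *H3f3a* (ENSMUSG00000060743.12) is at chr1:180800832-180813943 and *H3f3b* (ENSMUSG00000016559.14) at chr11:116021912-116027962, both on the minus strand. *Cenpa* (ENSMUSG00000029177.9) is at chr5:30666777-30674830, *H1f0* (ENSMUSG00000096210.1) at chr15:79028450-79030504 and *Anp32e* (ENSMUSG00000015749.12) at chr3:95929246-95947390, all on the plus strand. *H3f3a*, *H2afy* and *H1f0* each overlap an annotated antisense transcript.

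The libraries held between 820915 and 8095810 counts in genes, with a median of 2952788, and the lowest count of any of the 10 genes in any embryo was 46. Batch 1 held 11 embryos of all 3 groups, batch 2 held 7 and batch 3 held 1 dKO-E embryo, and no litter held both cKO-E and dKO-E embryos, so that litter and the difference between these groups cannot be told apart. All dKO-E embryos came from litter 1 (A to C, with ctrl A and B) or litter 2 (D to G), which held no other group. There were 4 females and 3 males in ctrl, 4 and 1 in cKO-E, and 2 and 5 in dKO-E. Levels are given in CPM, each count scaled to its library's total by TMM factors. Counts of *Ino80*, which read the whole gene and not the deleted exons, were higher in cKO-E (166 ± 14.7 CPM, SD, n = 5) and dKO-E (186 ± 13.7, n = 7) than in ctrl (121 ± 8.62, n = 7), so that they are no check of the deletion. *Trp53* was at 43.7 ± 5.21 CPM in ctrl, 39.2 ± 4.66 in cKO-E and 34.6 ± 4.92 in dKO-E, and its fall in dKO-E passed the test (log2 fold change −0.36 ± 0.10, SE, adjusted p = 0.0196).

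All 10 genes were expressed in E13.5 neocortex, and the order of their levels was read as CPM (library-scaled counts) per kilobase of exon. In ctrl, *H2afy2* stood at 71.9 ± 6.31 CPM per kb (SD, n = 7) and *H1f0* at 70.9 ± 8.55. *H2afv* (52.4 ± 5.74), *H3f3b* (50.2 ± 5.00), *Anp32e* (46.4 ± 3.31), *H2afy* (44.6 ± 2.31) and *H2afx* (40.8 ± 5.64) formed the middle of the order on the same scale. *H3f3a* (34.2 ± 1.65) and *H2afz* (31.0 ± 6.20) were lower, and *Cenpa* was lowest at 13.2 ± 1.33 CPM per kb. Every pair of neighbours in this order had overlapping ranges over the ctrl embryos, except that all ctrl embryos had less *Cenpa* (at most 15.3 CPM per kb) than *H2afz* (at least 22.8). The lengths are those of all annotated exons together (5.86 kb for *Cenpa*, 1.78 kb for *H2afz*), not of the transcripts expressed here. The place of *Cenpa* depends on them. In CPM without length, every ctrl embryo had more *Cenpa* (at least 69.1) than any had *H2afz* (at most 68.1), with means of 77.6 and 55.0.

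**Figure D1:**
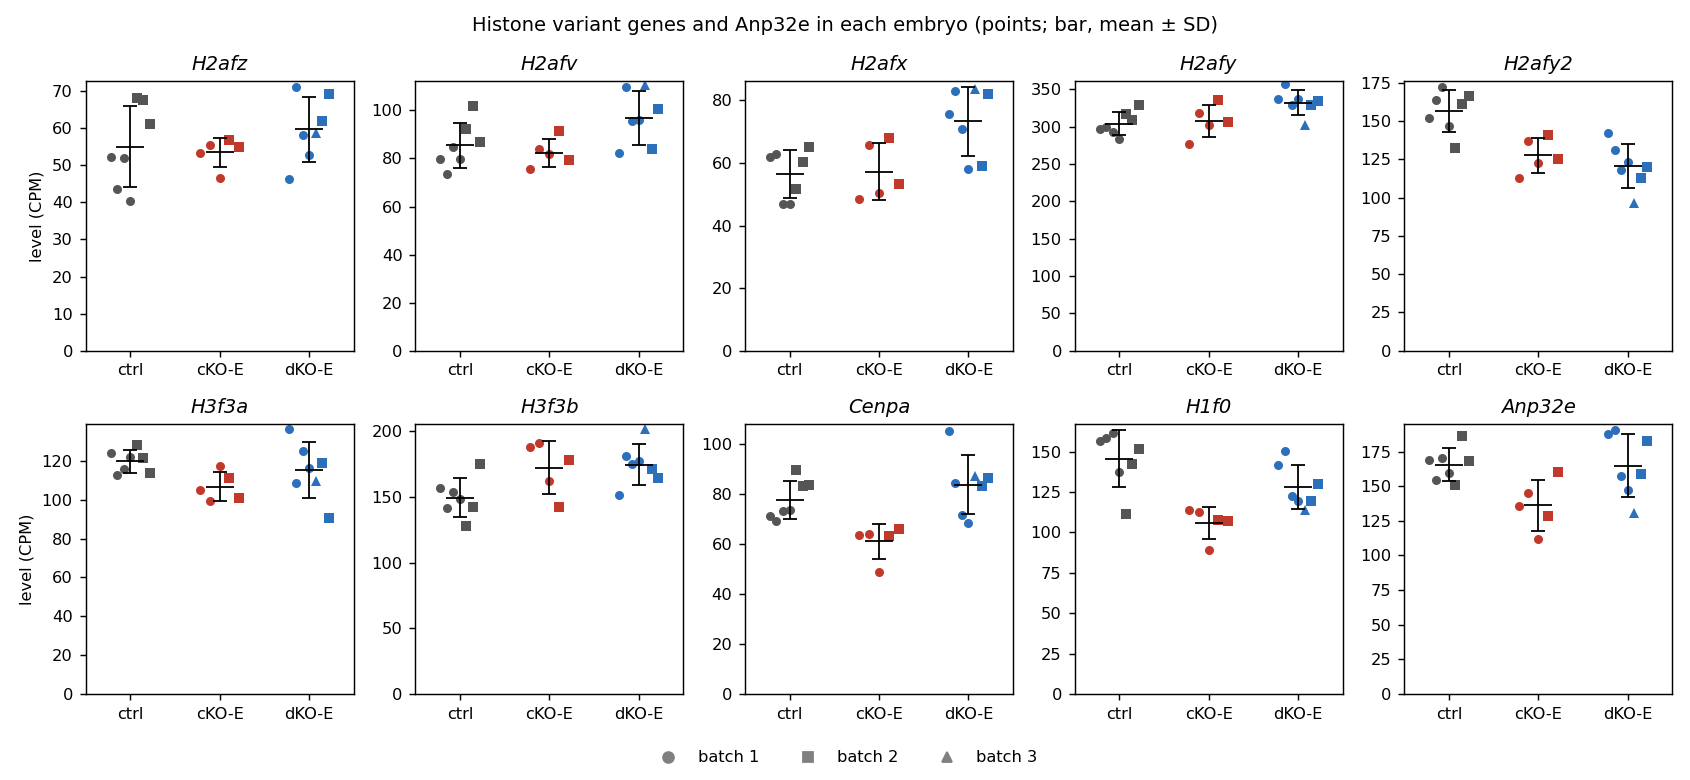
Level of each gene in CPM (y axis from 0) in every embryo, grouped as ctrl (grey, n = 7), cKO-E (red, n = 5) and dKO-E (blue, n = 7); symbols give the batch and bars the mean ± SD. *H2afy2* sits lower in both mutants, whereas *Cenpa* and *H1f0* sit lowest in cKO-E, where the highest embryos have 65.8 and 113.7 CPM.

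Loss of *Ino80* alone was compared with ctrl first. Of the 10 genes, 4 were lower in cKO-E (*H1f0*, *Cenpa*, *H2afy2* and *Anp32e*) and none was higher by edgeR's quasi-likelihood test at a false discovery rate of 0.05. Among all 11660 genes tested, 9.88% were lower and 7.31% higher. The median log2 fold change of the 10 genes was −0.11, and that of all genes 0.02. At a false discovery rate of 0.001, which 3.38% of all genes passed, none of the 10 passed by the quasi-likelihood test as fitted here. *H1f0* passed it by the likelihood ratio test (adjusted p = 2.38e-05), by DESeq2 (3.88e-05) and in the quasi-likelihood fits without the filter (0.000107), with batch as a covariate (0.000371), with the letter of the sample name as a block (0.000418) and over all embryos at once (0.000632). In bulk tissue, fewer cells of a type and less RNA per cell cannot be told apart, here and in every comparison that follows.

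In the double mutant a partly different set of genes passed. In dKO-E against the same 7 ctrl embryos, *H2afy2* was lower, and *H2afx* and *H3f3b* were higher, beside 10% lower and 5.45% higher of all 11381 genes tested. The median log2 fold change was 0.11 for the 10 genes and 0.01 for all genes. At 0.001, which 2.58% of all genes passed, none of the 10 did, whereas *H2afy2* passed by the likelihood ratio test (adjusted p = 5.19e-05), by DESeq2 (4.31e-05) and without the filter (0.000913). In the direct comparison of dKO-E with cKO-E, *Cenpa*, *H2afx* and *H1f0* were higher in dKO-E and none was lower, beside 5.59% higher and 9.42% lower of all 11746 genes. The median there was 0.20 for the 10 genes and 0.02 for all genes, and none passed at 0.001, as 3.13% of all genes did. There *Cenpa* passed 0.001 without the filter (adjusted p = 0.000228), and with sex as a covariate *Cenpa* (0.000152), *H1f0* (0.000109) and *Anp32e* (0.000949) did. When each library was scaled by its total alone, the median of all genes in dKO-E against ctrl moved from 0.01 to 0.10, and the split of calls over all genes turned: from 1152 lower and 852 higher to 910 and 1068 in cKO-E against ctrl, from 1139 and 620 to 694 and 1783 in dKO-E against ctrl, and from 1106 and 657 to 942 and 1064 in dKO-E against cKO-E. With that scaling *Anp32e* lost its call in cKO-E (−0.24, adjusted p = 0.0659) and *H3f3b* gained 1 (0.26, adjusted p = 0.0385), *H2afv* and *H2afy* were also higher in dKO-E than ctrl (0.27 and 0.22), *H2afv* and *Anp32e* were also higher in dKO-E than cKO-E (0.30 and 0.32), and every other call of the 10 genes held.

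**Figure D2:**
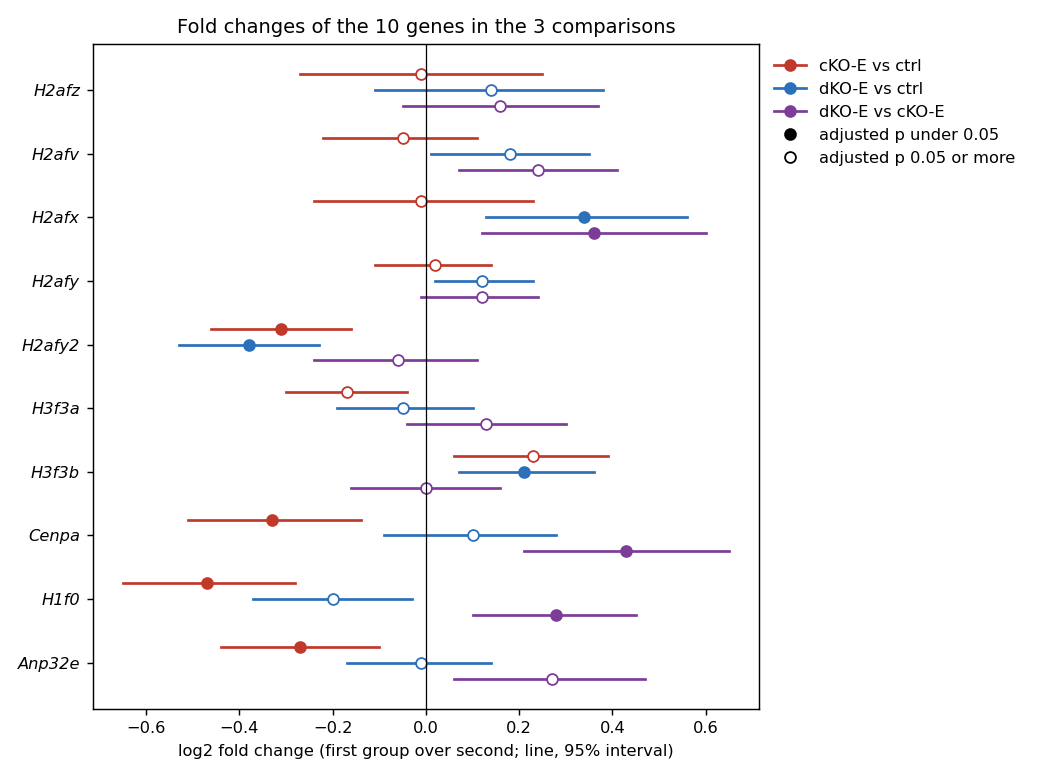
Log2 fold change (x axis, first group over second) of the 10 genes in cKO-E against ctrl (red), dKO-E against ctrl (blue) and dKO-E against cKO-E (purple), with 95% intervals as lines; filled points have an adjusted p under 0.05. The red and blue points of *H2afy2* lie together at −0.31 and −0.38, and those of *Cenpa* lie apart at −0.33 and 0.10.

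The H2A.Z genes did not pass the test in any comparison. *H2afz* ran from 40.5 to 68.1 CPM in ctrl (median 52.2) and from 46.2 to 71.2 in dKO-E (median 58.6), and it was 53.4, 55.5, 46.7, 56.8 and 55.0 CPM in cKO-E A to E. The groups overlapped, and the ctrl embryos alone spanned nearly the whole range. The log2 fold change was −0.01 in cKO-E against ctrl (95% interval −0.27 to 0.25, adjusted p = 0.978) and 0.14 in dKO-E against ctrl (−0.11 to 0.38, adjusted p = 0.474). Within ctrl, the 3 embryos of batch 2 (61.1 to 68.1 CPM) all had more *H2afz* than the 4 of batch 1 (40.5 to 52.2), and the cKO-E difference was 0.13 within batch 1 and −0.24 within batch 2, neither past the test (adjusted p = 0.483 and 0.378).

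*H2afv*, the second H2A.Z gene, ran from 73.6 to 102.0 CPM in ctrl (median 84.6) and from 82.4 to 110.4 in dKO-E (median 96.1). It was 75.8, 84.0, 81.7, 91.4 and 79.3 CPM in cKO-E A to E. All 5 cKO-E embryos lay within the ctrl range, while 2 dKO-E embryos lay above it. Its difference between dKO-E and cKO-E was 0.24 ± 0.08 (SE, adjusted p = 0.0538), which missed the threshold but passed it with the likelihood ratio test, with total counts and without the filter. *H2afz* gave 38.9% ± 2.91 of the counts of the pair in ctrl, 39.4% ± 2.04 in cKO-E and 38.1% ± 2.93 in dKO-E. The log2 ratio of the pair differed between groups by −0.08 to 0.03, and none of the 3 differences passed a two-sided exact permutation test (adjusted p = 0.6 to 0.756 over 9 tests of ratios).

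*Anp32e*, which takes H2A.Z out of nucleosomes, was lower in cKO-E. It ran from 151.2 to 186.5 CPM in ctrl (median 167.9), was 135.8, 144.8, 111.6, 128.5 and 160.6 CPM in cKO-E A to E, and ran from 130.5 to 190.8 in dKO-E (median 158.6). In cKO-E, 4 of 5 embryos lay below every ctrl embryo, and dKO-E spanned the ctrl range. The log2 fold change was −0.27 ± 0.08 in cKO-E against ctrl (adjusted p = 0.0278) and −0.01 ± 0.08 in dKO-E against ctrl (adjusted p = 0.936). The difference between dKO-E and cKO-E, 0.27 ± 0.10, did not pass (adjusted p = 0.0781). It passed with sex as a covariate (0.42, adjusted p = 0.000949), although only 1 cKO-E embryo was male, with batch as a covariate (0.31, adjusted p = 0.0382), without the filter (0.28, adjusted p = 0.0174) and with total counts (0.32, adjusted p = 0.0337). The fall in cKO-E was lost without any 1 of ctrl A or cKO-E A, C or D, with a range of −0.34 to −0.20 over all embryos left out in turn and an adjusted p of up to 0.0872.

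The genes of H2A.Z exchange were read beside these. Of 18 subunits and chaperones, 3 were lower in cKO-E and none higher, with a median log2 fold change of −0.03. These were *Nap1l1*, a histone chaperone (−0.32 ± 0.06, adjusted p = 0.00243), *Epc2*, a subunit of the TIP60 complex (−0.26 ± 0.05, adjusted p = 0.00298), and *Brd8*, a bromodomain subunit of the same complex (−0.31 ± 0.08, adjusted p = 0.0143). In dKO-E against ctrl, *Epc2* (−0.22 ± 0.05, adjusted p = 0.00522), *Nap1l1* (−0.23 ± 0.07, adjusted p = 0.0316) and *Yeats4* (−0.33 ± 0.11, adjusted p = 0.0402) were lower. *Trrap*, the scaffold of TIP60 (0.23 ± 0.05, adjusted p = 0.00645), and *Ep400*, the ATPase of that complex (0.18 ± 0.05, adjusted p = 0.016), were higher there, with no overlap between the groups for either gene. None of the 18 differed between dKO-E and cKO-E. *Srcap*, the ATPase of the other exchange complex and named here after its values were seen, was 31.4 ± 4.09 CPM in ctrl and 25.4 ± 1.92 in cKO-E (−0.30 ± 0.10, adjusted p = 0.0516).

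*H2afy2*, which encodes macroH2A2, was lower in both mutants. It ran from 132.2 to 172.4 CPM in ctrl (median 161.4), was 112.8, 136.9, 122.5, 140.8 and 125.2 CPM in cKO-E A to E, and ran from 96.2 to 142.3 in dKO-E (median 120.0). Only ctrl F, at 132.2 CPM, lay within the range of the mutants, and 3 of 5 cKO-E and 6 of 7 dKO-E embryos lay below every ctrl embryo. The level was 0.808-fold that of ctrl in cKO-E (log2 fold change −0.31 ± 0.07, SE, adjusted p = 0.00688) and 0.768-fold in dKO-E (−0.38 ± 0.07, adjusted p = 0.0016). Both calls held on leaving out any 1 embryo (−0.34 to −0.27 and −0.41 to −0.33). With the litter as a block, the call in cKO-E held (−0.31, adjusted p = 0.0129) and that in dKO-E was lost (−0.30, adjusted p = 0.0991). The difference between dKO-E and cKO-E was −0.06, with a 95% interval of −0.24 to 0.11. Within batch 1 the differences from ctrl were −0.36 and −0.32 (adjusted p = 0.00848 and 0.0168), and within batch 2, with 2 embryos of each mutant, −0.23 and −0.42 (adjusted p = 0.331 and 0.0769).

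Its paralog *H2afy*, which encodes macroH2A1, did not pass the quasi-likelihood test in any comparison. *H2afy* ran from 283.3 to 329.6 CPM in ctrl (median 300.1), was 276.9, 318.1, 302.7, 336.0 and 305.7 CPM in cKO-E A to E, and ran from 302.0 to 357.2 in dKO-E (median 334.1). The groups overlapped, with 4 of 7 dKO-E embryos above every ctrl embryo. The log2 fold change was 0.02 in cKO-E (95% interval −0.11 to 0.14) and 0.12 in dKO-E (0.02 to 0.23, adjusted p = 0.107), neither past the test. In dKO-E it lay near the threshold: it passed with DESeq2 (0.14, adjusted p = 0.0312), with total counts (0.22, adjusted p = 0.0105), with batch as a covariate (0.15, adjusted p = 0.0481) and within batch 1 (0.20, adjusted p = 0.0495).

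The balance between the macroH2A genes shifted. *H2afy* gave 66.0% ± 2.33 (SD, n = 7) of the counts of the pair in ctrl, 70.7% ± 0.527 (n = 5) in cKO-E and 73.5% ± 1.67 (n = 7) in dKO-E. The cKO-E embryos lay between 69.9% and 71.2%, while ctrl ran from 62.9% to 70.6% and dKO-E from 70.3% to 75.8%, so that only the ends of the ranges met. By two-sided exact permutation tests the log2 ratio was higher than in ctrl by 0.31 in cKO-E (p = 0.00884, adjusted p = 0.0341) and by 0.51 in dKO-E (p = 0.00117, adjusted p = 0.0105), and it was higher in dKO-E than cKO-E by 0.20 (p = 0.0114, adjusted p = 0.0341). The last of these was lost without any 1 of the 5 cKO-E embryos (0.18 to 0.21, adjusted p of up to 0.075), and in batch 1 alone it was 0.13. The first and second kept their calls whichever embryo was left out.

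**Figure D3:**
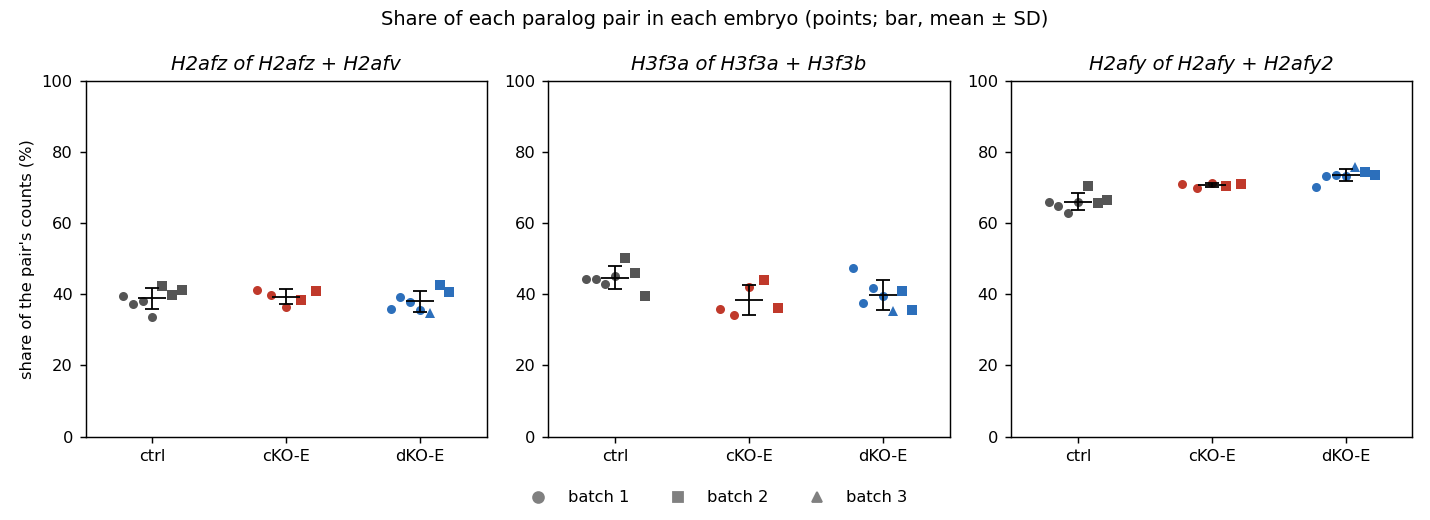
Share of the counts of each paralog pair (y axis, percent, 0 to 100) that came from *H2afz*, *H3f3a* and *H2afy* in every embryo, with batches as symbols and the mean ± SD as bars. The share of *H2afy* rises from 66.0% in ctrl to 70.7% in cKO-E and 73.5% in dKO-E, whereas that of *H2afz* stays between 38.1% and 39.4%.

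The H3.3 genes showed opposite signs. *H3f3a* ran from 112.7 to 128.3 CPM in ctrl (median 121.6), was 104.8, 99.5, 117.4, 111.2 and 100.9 CPM in cKO-E A to E, and ran from 90.8 to 136.6 in dKO-E (median 116.5). In cKO-E, 4 of 5 embryos were below every ctrl embryo, yet the difference missed the threshold (−0.17 ± 0.06, adjusted p = 0.0614). That difference passed without ctrl B (−0.19, adjusted p = 0.0466) or without cKO-E C (−0.21, adjusted p = 0.036). In dKO-E it was −0.05 (95% interval −0.19 to 0.10).

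*H3f3b* ran from 127.6 to 175.1 CPM in ctrl (median 148.6), was 187.9, 191.1, 162.3, 142.1 and 178.1 CPM in cKO-E A to E, and ran from 151.7 to 201.6 in dKO-E (median 175.1). The 3 highest cKO-E embryos were above every ctrl embryo, and cKO-E D was within the lower part of the ctrl range. The difference passed the test in dKO-E (0.21 ± 0.07, adjusted p = 0.038) and missed it in cKO-E at a similar size (0.23 ± 0.08, adjusted p = 0.0594). Both calls lay near the threshold: that in dKO-E was lost on leaving out 8 of the 14 embryos in turn, with an adjusted p of up to 0.0731, and that in cKO-E was gained without ctrl I or cKO-E D. In cKO-E it also passed by the likelihood ratio test (adjusted p = 0.038), with total counts (0.0385), with batch as a covariate (0.0352), within batch 1 (0.0311), with at least 10 counts in every embryo (0.0491) and in 1 fit over all embryos (0.0473). In dKO-E it did not pass with batch (0.0769) or sex (0.0614) as a covariate, with the litter as a block (0.373) or without the filter (0.0759). Between dKO-E and cKO-E the difference was −0.00 (95% interval −0.16 to 0.16).

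*H3f3a* gave 44.6% ± 3.23 of the H3.3 counts in ctrl, 38.4% ± 4.25 in cKO-E and 39.7% ± 4.21 in dKO-E. The log2 ratio was lower by 0.37 in cKO-E than in ctrl (difference −0.37, two-sided exact permutation p = 0.0189, adjusted p = 0.0426), and the difference of −0.29 in dKO-E did not pass after adjustment (p = 0.0321, adjusted p = 0.0577). The call in cKO-E was lost on leaving out 9 of the 12 embryos in turn (ctrl A, B, C, D, F and H, and cKO-E A, B and E), where the difference stayed between −0.45 and −0.31 over all 12.

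Among the 10 genes that place H3.3, 4 were lower and 1 was higher in cKO-E, with a median log2 fold change of −0.14, and 2 were lower and 1 higher in dKO-E, with a median of −0.06. *Ubn2*, a subunit of the HIRA complex, was lower in both mutants. Its log2 fold change was −0.35 ± 0.08 after loss of *Ino80* alone (adjusted p = 0.00435) and −0.56 ± 0.07 after loss of both genes (adjusted p = 3.26e-05). *Atrx*, the remodeller that works with DAXX, was also lower in both (−0.18 ± 0.05, adjusted p = 0.0234, and −0.27 ± 0.05, adjusted p = 0.000782), and *Cabin1*, another HIRA partner, was higher in both (0.16 ± 0.05, adjusted p = 0.0418, and 0.30 ± 0.06, adjusted p = 0.00164). For *Atrx* and *Cabin1* neither mutant group overlapped ctrl.

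*Dek*, a chromatin protein with H3.3 chaperone activity, and *Nasp*, a chaperone of H3 and linker histones, differed from these. *Dek* was lower in cKO-E (−0.38 ± 0.07, adjusted p = 0.00187) and higher in dKO-E than cKO-E (0.33 ± 0.10, adjusted p = 0.0276). *Nasp* was lower in cKO-E (−0.34 ± 0.08, adjusted p = 0.00504), and its difference between the mutants did not pass (0.20 ± 0.09, adjusted p = 0.137). *Hira* and *Daxx*, which give the pathways their names and are named here for that reason after their values were seen, were at 15.8 ± 2.54 and 22.1 ± 3.81 CPM in ctrl and did not pass the quasi-likelihood test in any comparison.

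*Cenpa*, needed for the kinetochore, had the largest difference between dKO-E and cKO-E of the 10 genes. It was 63.6, 64.0, 48.9, 63.0 and 65.8 CPM in cKO-E A to E, and ran from 69.1 to 89.6 CPM in ctrl (median 73.7) and from 68.5 to 105.1 in dKO-E (median 84.5). Every cKO-E embryo lay below every ctrl embryo and below every dKO-E embryo, while ctrl and dKO-E overlapped. Among the 10 genes it was the only 1 without overlap between cKO-E and ctrl, beside 8.83% of all genes, and with *H1f0* it was 1 of 2 without overlap between dKO-E and cKO-E, beside 7.16%. None of the 10 was without overlap between dKO-E and ctrl, beside 4.43%.

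The level of *Cenpa* was 0.798-fold that of ctrl in cKO-E (log2 fold change −0.33 ± 0.09, SE, adjusted p = 0.0169). In dKO-E it did not differ from ctrl past the threshold (0.10 ± 0.09, adjusted p = 0.508), and it was 1.35-fold higher than in cKO-E (0.43 ± 0.11, adjusted p = 0.00842). The last call held whichever embryo was left out (0.35 to 0.48, adjusted p of up to 0.0384). The fall in cKO-E was lost without cKO-E C, the lowest embryo (−0.25, adjusted p = 0.057). It was −0.29 within batch 1 and −0.39 within batch 2 (adjusted p = 0.0647 and 0.0914), and the difference between the mutants was 0.46 and 0.37 (adjusted p = 0.0786 and 0.304).

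*Cenpa* is itself most abundant in G2, and markers of cycling cells moved in the same way. Of 15 such genes, 7 were lower in cKO-E than in ctrl and none higher (median −0.27), none passed in dKO-E against ctrl (median 0.05), and 8 were higher in dKO-E than cKO-E (median 0.34). Their summed level ran from 2462.8 to 3257.5 CPM in ctrl, from 1937.7 to 2593.8 in cKO-E and from 2294.7 to 3335.8 in dKO-E, and none of the 15 was at 0. Their part in the differences of *Cenpa*, *Anp32e* and *H1f0* was not tested.

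Of the 9 genes for loading CENP-A, 8 were tested. In cKO-E 2 of them were lower and none higher, with a median of −0.09, and none passed in dKO-E against ctrl. *Hjurp*, the CENP-A chaperone, named here after its values were seen, was 1 of them (−0.25 ± 0.08, adjusted p = 0.0366), and it missed the threshold between dKO-E and cKO-E (0.17 ± 0.06, adjusted p = 0.0552).

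*H1f0*, the linker histone of cells that slow or leave the cell cycle, fell the most of the 10 genes in cKO-E. It ran from 111.2 to 161.8 CPM in ctrl (median 151.7), was 113.7, 112.7, 89.0, 107.5 and 107.0 CPM in cKO-E A to E, and ran from 113.8 to 150.7 in dKO-E (median 122.7). Apart from ctrl F, at 111.2 CPM, every ctrl embryo was above every cKO-E embryo, and dKO-E lay between, within the ctrl range. The level was 0.723-fold that of ctrl in cKO-E (−0.47 ± 0.09, adjusted p = 0.00152). That call held whichever embryo was left out (−0.52 to −0.41) and within batch 1 (−0.55, adjusted p = 0.00109), but not within batch 2 (−0.34, adjusted p = 0.18).

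In dKO-E the difference of *H1f0* from ctrl did not pass (−0.20 ± 0.08, 95% interval −0.37 to −0.03, adjusted p = 0.0983). It lay near the threshold, and passed without ctrl F (−0.25, adjusted p = 0.0222) or without dKO-E B (−0.24, adjusted p = 0.0453). The level was 1.21-fold higher in dKO-E than cKO-E (0.28 ± 0.08, adjusted p = 0.0312), with no overlap, although the lowest dKO-E embryo (113.8 CPM) and the highest cKO-E embryo (113.7) nearly met. This call was lost without any 1 of dKO-E A, dKO-E B, cKO-E C or cKO-E D (0.21 to 0.31 over the 12 embryos, adjusted p of up to 0.121), and within each batch alone (0.34 and 0.19, adjusted p = 0.0865 and 0.652).

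*H2afx* was higher in dKO-E than in either other group. It ran from 46.8 to 65.0 CPM in ctrl (median 60.3), was 48.5, 65.9, 50.3, 67.9 and 53.3 CPM in cKO-E A to E, and ran from 58.0 to 83.7 in dKO-E (median 75.8). In dKO-E, 5 of 7 embryos were above every ctrl and every cKO-E embryo, and dKO-E D and F (58.0 and 59.0 CPM) were within both ranges. The log2 fold change was −0.01 in cKO-E against ctrl (95% interval −0.24 to 0.23), 0.34 ± 0.10 in dKO-E against ctrl (adjusted p = 0.0286) and 0.36 ± 0.11 in dKO-E against cKO-E (adjusted p = 0.0402).

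Both calls of *H2afx* were near the threshold. The first was lost without ctrl C, ctrl D or dKO-E B (adjusted p of up to 0.0708) and the second on leaving out 8 of the 12 embryos in turn (adjusted p of up to 0.127). Within batch 1 the differences were 0.37 and 0.38 (adjusted p = 0.0712 and 0.115), and within batch 2 they were 0.17 and 0.20 (adjusted p = 0.641 and 0.762). With batch as a covariate neither passed (0.32, adjusted p = 0.0518, and 0.33, adjusted p = 0.0806), and with the litter block the first was at 0.28 (adjusted p = 0.236). *H2afj*, which encodes a replacement H2A and shares sequence with *H2afx*, was higher in both mutants than in ctrl, by 0.58 ± 0.15 for cKO-E (adjusted p = 0.011) and 0.50 ± 0.14 for dKO-E (adjusted p = 0.0201). It was the only 1 called of 3 tested among 10 other histone variant genes, and in each group 5 of those 10 were at 0 in all embryos.

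General histone chaperones are not tied to 1 variant. Of 9 tested of 12, 2 were lower in cKO-E and 1 in dKO-E, none was higher, and the medians were −0.14 and 0.04. *Anp32a*, of the same family as *Anp32e*, was lower in cKO-E without overlap (−0.41 ± 0.05, adjusted p = 7.3e-05) and also fell in dKO-E (−0.30 ± 0.07, adjusted p = 0.0102). Its relative *Anp32b*, named after its values were seen, was lower in cKO-E (−0.29 ± 0.09, adjusted p = 0.0359) and higher in dKO-E than cKO-E (0.35 ± 0.10, adjusted p = 0.0232). *Chaf1a*, of the replication-coupled chaperone CAF-1 and also named after its values were seen, was higher in dKO-E than cKO-E (0.38 ± 0.11, adjusted p = 0.0299).

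**Figure D4:**
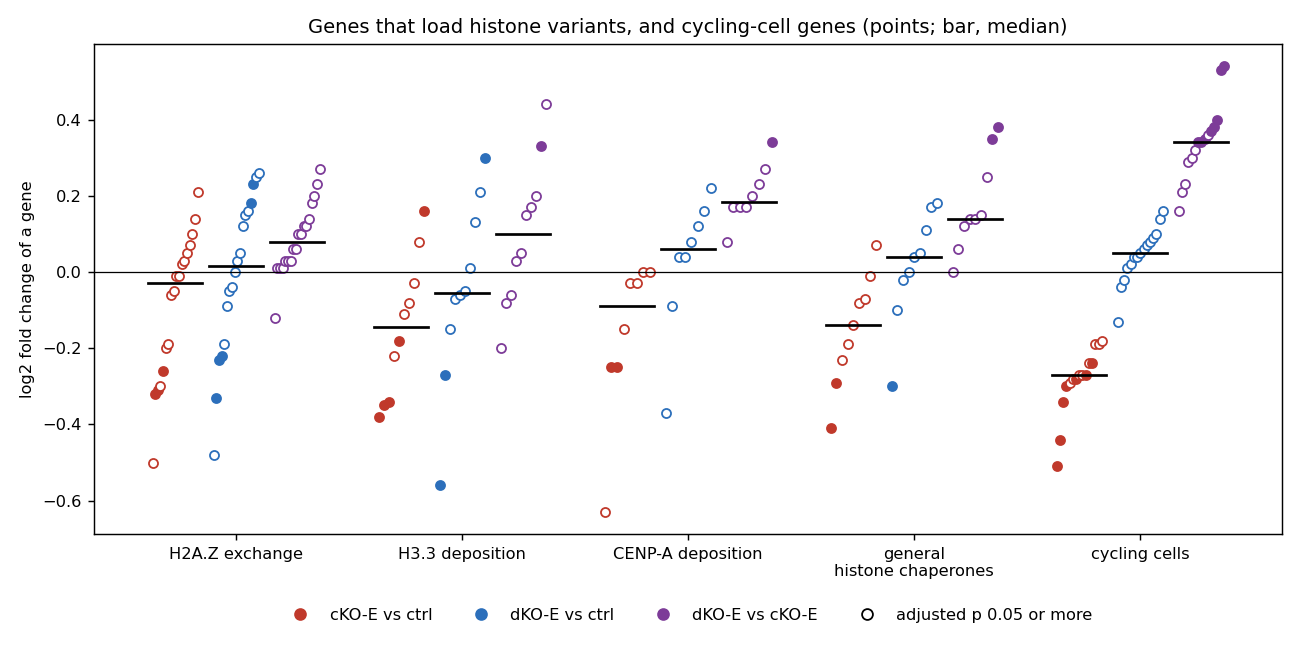
Log2 fold change (y axis) of every tested gene in 4 lists of histone loading genes and 1 of cycling-cell genes, in cKO-E against ctrl (red), dKO-E against ctrl (blue) and dKO-E against cKO-E (purple); filled points have an adjusted p under 0.05 and bars are medians. The bars of the cycling list lie at −0.27, 0.05 and 0.34.

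The tissue was checked against its markers. All 7 neocortex markers were tested, and 4 (*Emx1*, *Emx2*, *Lhx2* and *Pax6*) were lower in cKO-E and 1 (*Emx2*) in dKO-E, with summed levels of 1026.5 to 1112.1 CPM in ctrl, 771.8 to 968.3 in cKO-E and 824.9 to 1073.0 in dKO-E. Of 9 tested apical progenitor genes, 5 were lower and 1 higher in cKO-E, and of 6 intermediate progenitor genes, 2 were lower. Neuronal genes summed to 4297.6 to 7100.7 CPM in ctrl, 5065.2 to 6622.3 in cKO-E and 3565.3 to 5171.1 in dKO-E. Microglial genes, from cells outside the *Emx1* lineage, summed to 5.94 to 17.8 CPM in ctrl, 28.7 to 37.1 in cKO-E and 9.46 to 13.4 in dKO-E, so that cKO-E did not overlap the others. Of the interneuron genes, 1 of 5 tested was higher in cKO-E, and of the endothelial and erythroid genes none passed in any comparison. In dKO-E against cKO-E, 4 of 5 interneuron genes (median log2 fold change −0.76), 4 of 9 neuronal genes (−0.35) and 2 of 3 microglial genes (−1.30) were lower and none was higher. There, 3 of 9 apical progenitor genes were higher and 1 was lower (0.26), and 2 of 7 neocortex markers were higher and 1 was lower (0.18). In dKO-E against ctrl, 2 of 9 apical progenitor genes (−0.07) and 3 of 9 neuronal genes (−0.29) were lower and none was higher. The part of these cell types in the differences of the histone variant genes was not tested.

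Across the 19 embryos, genes most like *H2afz* among 4428 genes compared included *Rcc2* (Pearson's r of log2 CPM 0.85), *Mcm7* (0.83), *Taf1d* (0.83) and *Atad2* (0.82), of which *Mcm7* serves DNA replication. Those most like *H1f0* were *Nespas* (0.86), *Foxp4* (0.86), *Heg1* (0.86), *Golim4* (0.85) and *Srek1* (0.83). These values are descriptions over embryos that share batches and groups, and differences between groups enter them.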

How the data were processed

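RNA of 19 embryonic neocortices was depleted of ribosomal RNA and sequenced by Click-seq with unique molecular identifiers. Per the labels and the study's methods, the authors trimmed reads with cutadapt 1.13, aligned them with STAR 2.5.2a to GRCm38 (mm10), removed duplicates with UMI-tools 0.5.3 and deposited raw counts per GENCODE gene made with HTSeq 0.6.1p1, in which a read that aligns to several places is not counted. The annotation release is not given in the sources used here. Reads without a feature made up 6 to 15.1% of uniquely aligned reads and were left out of library sizes.

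Gene ids were matched without version to GENCODE M21, which found 51633 of 51912. Each comparison was fitted on its own with edgeR 4.0.16 (filterByExpr with a minimum count of 10, TMM factors, quasi-likelihood test, Benjamini-Hochberg adjustment over all genes tested, false discovery rate 0.05), in R 4.3.3. An SE is that of the log2 fold change. The 9 ratios of paralogs (pseudocount 0.5) were tested by two-sided exact permutation and adjusted together. The fits in which ctrl enters share the ctrl embryos. On simulated data the fit for cKO-E against ctrl recovered 54.1% of 1.5-fold and 84.7% of 2-fold changes, that for dKO-E against ctrl 66.0% and 90.9%, and that for dKO-E against cKO-E 64.3% and 89.4%. The alternatives were the likelihood ratio test that the authors used, DESeq2 1.42.0, other scalings and filters, batch, sex and litter terms, each batch alone, and leaving out each embryo. Embryos are separate animals, several from 1 litter. Outside the fits with a litter block, p-values measure the spread between embryos and do not account for that between litters.

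The genes and lists were chosen with earlier results of these data known. Named in the text are all 10 genes, up to 8 list genes per comparison against ctrl with the smallest p among those called, the 5 genes most like *H2afz* and *H1f0* (mean of at least 50 CPM), and the targeted genes; a few genes that this rule or the lists hold are not reported here. Letters in sample names were not taken as pairs.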

Additional observations from a re-analysis of the deposited data

Results flagged for a closer look

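cKO-E C stood apart from the other 4 cKO-E embryos in 2 of 30 groups of values checked by Dixon's test, of which chance flags about 1 in 20. It had 48.9 CPM of *Cenpa*, where the other embryos had 63.0 to 65.8, and 89.0 CPM of *H1f0*, where they had 107.0 to 113.7. It was also the lowest cKO-E embryo for *H2afz* (46.7 CPM) and *Anp32e* (111.6 CPM), and the only male of its group. Without it, *H1f0* was still lower in cKO-E than in ctrl (−0.41, adjusted p = 0.00606), *Cenpa* was not (−0.25, adjusted p = 0.057), and 1 of the 10 genes, *Cenpa*, remained higher in dKO-E than cKO-E (0.35, adjusted p = 0.0384).

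For 3 genes dKO-E differed from cKO-E, which share the *Ino80* deletion, by edgeR's quasi-likelihood test. No embryos with *Trp53* deleted alone were analysed here, so an effect of *Trp53* loss by itself and a change in the effect of the *Ino80* deletion cannot be told apart. No litter held both groups, so neither can be told apart from a difference between litters. The sexes were also uneven, with 4 females and 1 male in cKO-E and 2 and 5 in dKO-E. The difference between dKO-E and cKO-E was 0.43 on the log2 scale for *Cenpa* (adjusted p = 0.00842), higher in 7 of 7 dKO-E embryos than in any cKO-E embryo. It was 0.28 for *H1f0* (adjusted p = 0.0312), again higher in 7 of 7, and 0.36 for *H2afx* (adjusted p = 0.0402), higher in 5 of 7. Over all genes tested, 7.16% had no overlap between these groups. The calls of *H1f0* and *H2afx* were lost on leaving out 4 and 8 of the 12 embryos in turn, and none of the 3 calls held in either batch alone.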

How the results depend on the processing

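Of the 4 genes called in cKO-E against ctrl, none passed at a false discovery rate of 0.001 in the quasi-likelihood fit (0), although *H1f0* did in 6 other fits and without ctrl F, or in batch 2 alone (0), which leaves 2 cKO-E embryos, and leaving out 1 embryo gave 3 to 5 calls. In dKO-E against ctrl the count of 3 became 0 at 0.001, 0 with a litter block, 0 in batch 2 alone and 5 with total counts, and ran from 1 (without ctrl C or ctrl D) to 4 on leaving out 1 embryo. With the litter block *H2afy2* was at −0.30 (adjusted p = 0.0991). In dKO-E against cKO-E the count of 3 became 0 at 0.001, 0 in either batch alone, 5 with total counts and 5 without the filter, and ran from 1 (without dKO-E B or cKO-E C) to 4. No litter block could be fitted there. No call turned its direction. Over all genes, the 2004, 1759 and 1763 calls of the 3 comparisons became 606, 356 and 305 in batch 2 alone, the second became 585 with the litter block, and the third 1135 without cKO-E C. Single batches and fits without 1 embryo hold fewer embryos, and the cause of these changes was not tested.

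The letters of the sample names do not mark pairs: the deviations of embryos with the same letter correlated at −0.12 to 0.11 (cKO-E and ctrl), −0.65 to 0.45 (dKO-E and ctrl) and −0.20 to 0.41 (dKO-E and cKO-E), and 1 embryo per comparison correlated best with its own letter. With the letter as a block, 3, 2 and 3 of the 10 genes were called, and 1018 genes in all in dKO-E against ctrl. *Cenpa* in cKO-E (−0.26, adjusted p = 0.0934) and *H3f3b* in dKO-E (0.22, adjusted p = 0.103) lost their calls. The block gave log2 ratios of −0.31 for *H3f3a*/*H3f3b* in cKO-E, and of 0.38, 0.47 and 0.18 for *H2afy*/*H2afy2* in the 3 comparisons (exact sign-flip test, adjusted p = 0.281 for each, and 4 or 5 pairs cannot pass).

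The ratio *H3f3a*/*H3f3b* was −0.41 for cKO-E in batch 1 alone (adjusted p = 0.0857), and on leaving out 1 embryo it ran from −0.45 to −0.31 for cKO-E and from −0.37 to −0.24 for dKO-E, where it passed without ctrl I or dKO-E A. *H2afy*/*H2afy2* in batch 1 alone was 0.38 for cKO-E and 0.52 for dKO-E (adjusted p = 0.0857 for each, with fewer embryos), and 0.13 for dKO-E against cKO-E, where leaving out 1 embryo gave 0.17 to 0.24. For each of these differences from ctrl in batch 1, the groups did not overlap. The permutation p was the smallest that so few embryos allow. The shallowest library held 820915 counts. Of simulated 1.5-fold changes, larger than those of the 10 genes, 54.1% were recovered in cKO-E against ctrl.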
